A study of Mus musculus with 56 samples.

Results

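The 40 genes described here encode proteins of DNA replication and cell division, and they were followed through whole adrenal glands of mice that lack Znrf3 in steroid-producing cells. They form a list chosen by name for textbook roles, at a time when earlier results of these data were known. They comprise 10 genes of origin licensing and the replicative helicase (Cdc6, Cdt1, Mcm2 to Mcm7 without a gap, Cdc45, Gins2), 5 of the replication fork and nucleotide supply (Pcna, Uhrf1, Tyms, Rrm1, Rrm2), 4 E2F factors and E cyclins (E2f1, E2f8, Ccne1, Ccne2), 10 mitotic cyclins, kinases and regulators, and 11 of the spindle, kinetochore and chromosomes. All 40 were found by Ensembl identifier among the 55487 identifiers of the female and male tables and the 55414 of the surgery table, and all 40 passed the filter on low counts in each table.

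Znrf3 encodes a ubiquitin ligase of the plasma membrane that limits Wnt signalling by clearing Frizzled receptors. In the conditional knockouts (cKO; SF1-Cre+ with Znrf3 Fx/Fx, on C57BL/6J) the Cre is driven by the promoter of a nuclear receptor of steroidogenic cells, so that medullary, vascular, capsular and immune cells of the gland keep the gene unless they descend from such cells. Controls were littermates without Cre. The female glands came from mice aged 6, 9 or 12 weeks and the male glands from mice aged 4, 6 or 9 weeks, with 4 separate mice per genotype and age. In a further experiment, cKO males were castrated or sham operated at week 4 and taken at 9 weeks, again 4 mice each and with no Cre-negative group. Those 8 mice differed in reporter alleles: among the sham mice 2 carried R26eYFP/WT, 1 carried R26mTmG/WT and 1 carried none, and among the castrated mice 1 carried R26eYFP/WT, 2 carried R26mTmG/mTmG and 1 carried none. The study asks what accompanies the turn from an overgrown to a shrinking gland in these mice. RNA was measured by poly(A)-selected, strand-aware sequencing of the gland.

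A cell that is about to divide first loads the MCM helicase onto replication origins with Cdc6 and Cdt1, and then activates it with Cdc45 and the GINS complex. Cyclin E and the E2F transcription factors drive entry into S phase, when Pcna holds the polymerases on the template and Tyms and the ribonucleotide reductase subunits supply nucleotides. Cyclin A and cyclin B with Cdk1 then lead the cell through G2 into mitosis, where Plk1 and the aurora kinases build and check the spindle. Much of this set is transcribed in bursts tied to the cycle, the S phase genes through E2F sites and the G2 and M phase genes largely through CHR and CCAAT elements. In the adrenal cortex, new steroidogenic cells arise mostly from progenitors in and below the capsule, and the gland grows and remodels quickly in young animals.

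Promoters of 6 members, from the replication and the mitotic side, are printed to show which motif letters they hold. Each is 200 bases upstream of the transcription start, 5′ to 3′ on the gene's strand, from RefSeq on GRCm38.p6, and none overlaps an annotated exon. The first pair are helicase subunits: Mcm5 (chr8:75109309-75109508, + strand) and Mcm6 (chr1:128359706-128359905, − strand). The other four are the mitotic cyclin Ccnb2 (chr9:70421555-70421754, − strand), the spindle motor Kif11 (chr19:37376182-37376381, + strand), the proliferation marker Mki67 (chr7:135716380-135716579, − strand) and the DNA-untangling enzyme Top2a (chr11:99024190-99024389, − strand). Capitals mark matches on either strand to CHR (TTTGAA or TTTAAA), to the CCAAT box (CCAAT) or to the E2F motif (TTTNNCGC), and overlapping matches run together.
Mcm5: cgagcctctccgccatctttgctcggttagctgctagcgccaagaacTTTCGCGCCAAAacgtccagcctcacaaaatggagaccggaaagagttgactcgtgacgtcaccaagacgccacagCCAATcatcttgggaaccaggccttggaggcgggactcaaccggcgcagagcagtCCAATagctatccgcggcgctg
Mcm6: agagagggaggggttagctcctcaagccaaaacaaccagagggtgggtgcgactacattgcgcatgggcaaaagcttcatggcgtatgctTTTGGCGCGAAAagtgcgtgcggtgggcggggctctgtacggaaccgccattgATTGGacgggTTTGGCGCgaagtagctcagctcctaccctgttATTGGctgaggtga
Ccnb2: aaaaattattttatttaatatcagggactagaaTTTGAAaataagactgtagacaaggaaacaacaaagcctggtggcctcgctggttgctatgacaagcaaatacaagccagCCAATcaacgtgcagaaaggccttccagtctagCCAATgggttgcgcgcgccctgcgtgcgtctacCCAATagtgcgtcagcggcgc
Kif11: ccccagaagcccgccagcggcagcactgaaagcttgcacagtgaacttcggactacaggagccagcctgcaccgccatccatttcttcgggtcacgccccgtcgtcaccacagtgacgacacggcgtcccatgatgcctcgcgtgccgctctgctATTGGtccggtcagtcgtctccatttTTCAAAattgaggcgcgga
Mki67: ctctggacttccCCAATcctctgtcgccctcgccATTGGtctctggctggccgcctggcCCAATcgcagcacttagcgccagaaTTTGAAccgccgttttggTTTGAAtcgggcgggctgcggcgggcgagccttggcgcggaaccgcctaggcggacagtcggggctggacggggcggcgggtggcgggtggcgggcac
Top2a: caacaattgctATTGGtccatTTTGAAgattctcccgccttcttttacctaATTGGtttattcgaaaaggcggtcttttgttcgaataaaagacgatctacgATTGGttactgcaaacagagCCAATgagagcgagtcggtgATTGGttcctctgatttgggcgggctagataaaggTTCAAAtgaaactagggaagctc

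Within the printed 200 bases, Mcm5 and Mcm6 hold E2F and CCAAT matches and no CHR match, whereas the other four promoters hold CHR and CCAAT matches and no E2F match. Farther upstream, within the 250 bases searched, Mcm5 also has a CHR match (TTTAAA). RefSeq had a promoter entry for 32 of the 40 genes. Within the 250 bases upstream of the start, CHR was found in 16 of those 32 genes (50%), CCAAT in 25 (78.1%) and E2F in 6 (18.8%). Over all 32851 promoters of that length, the shares were 25.2%, 33.8% and 4.3%. The units differ: a member counted if any of its promoters matched, and 2 members have more than 1, whereas the 32851 were counted promoter by promoter. CHR was present in 6 of 7 mitotic regulators, 5 of 9 spindle genes, 3 of 8 licensing genes and 2 of 3 E2F and cyclin E genes. It was in 0 of 5 fork and nucleotide genes. E2F was present in 4 of 8 licensing genes, 1 of 5 fork and nucleotide genes and 1 of 7 mitotic regulators. It was in 0 of 9 spindle genes and 0 of 3 E2F and cyclin E genes. The printed promoters thus do not stand for a clean split of the motifs by role. These are matches of letters and were not tested as binding sites.

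Library depth was 35.7 to 51.6 M counts in females, 12.4 to 35.5 M in males and 25.1 to 42.4 M in the surgery experiment. Levels are CPM, counts scaled to a common library total after TMM normalization, and a call is an adjusted p under 0.05 in edgeR's quasi-likelihood test over all 18645 (female), 17086 (male) or 16961 (surgery) genes tested. Over all genes tested, the median log2 difference lay between −0.02 and 0.03 in the 21 comparisons. Shares of all genes tested are given for the main fit and for some DESeq2 runs. For counts at an unadjusted p, and for runs with libraries left out, covariates or other settings, no such share is given. Whether the 40 genes moved more than other genes in those runs is therefore not shown. Gene-level Znrf3 counts sum every exon and do not check the deletion. They were higher in cKO, at 55.6 to 101 CPM against 31.2 to 40.4 CPM in females and at 34.3 to 62.1 CPM against 26.4 to 42.7 CPM in males. Markers of the adrenal medulla were called lower, 8 of 8, in every cKO group against its controls, with a summed level of 236 to 894 CPM against 3730 to 5387 CPM in females. None of the 8 was at 0. Alb, a liver transcript, reached 10 CPM or more in 8 of the 56 libraries, all of them cKO glands. In whole glands, fewer cells of a type, less RNA per cell and a larger share of RNA from other cells cannot be told apart. Levels are compared only within a table, because the tables were scaled separately, and the comparisons within a table share groups.

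In 6-week females, 6 of the 40 genes were called higher and 0 lower in cKO. The share of higher calls is near that over all genes tested (14.2%, with 19.1% lower), and 37 of 40 had a positive difference, with a median of 0.25 on the log2 scale. The 6 included the licensing factor Cdt1, Gins2 of the GINS complex that activates the helicase, and the helicase subunit Mcm7. The others were the sliding clamp Pcna, the thymidylate synthase Tyms and the reductase subunit Rrm1. All 6 belong to the 15 genes of licensing, fork and nucleotide supply, and 0 of the 10 mitotic regulators and 0 of the 11 spindle genes were called. That split holds for calls and not for direction, as 10 of 10 mitotic regulators and 10 of 11 spindle genes had positive differences. The medians were 0.36 for licensing, 0.39 for fork and nucleotide genes, 0.11 for E2F and cyclin E genes, 0.27 for mitotic regulators and 0.22 for spindle genes.

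Tyms was 10.3, 10.6, 9.77 and 10.5 CPM in the 6-week controls and 12.8, 13.2, 15.7 and 15.8 CPM in the cKO females. Every cKO gland stood above every control, a log2 difference of 0.48 (SE 0.11, edgeR adjusted p = 0.00196). Mcm7 was 51.6, 43.7, 50.2 and 54.7 CPM in controls and 66.5, 69.4, 76.8 and 55.3 CPM in cKO, which differ by 0.42 (SE 0.11, edgeR adjusted p = 0.00417) on the log2 scale. The lowest cKO gland was just above the highest control. Pcna was 75.8 to 79.4 CPM in controls and 85.1, 82.5, 116 and 121 CPM in cKO, without overlap, and its log2 difference was 0.38 (SE 0.11, edgeR adjusted p = 0.00723). Rrm1 differed by 0.39 (SE 0.11), Cdt1 by 0.56 (SE 0.16) and Gins2 by 0.51 (SE 0.18) on the same scale. In all, 8 of the 40 genes had every cKO gland above every control, beside 12.5% of all genes tested.

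Mki67, the marker of cycling cells, showed how unlike one another the cKO females were at this age. Its level was 53.7, 42.5, 43.9 and 40.2 CPM in controls and 36.0, 36.5, 76.2 and 66.3 CPM in cKO: 2 cKO glands lay below every control and 2 above. The log2 difference of 0.25 (SE 0.37) was within that spread. Cyclin B1 (Ccnb1) split the same way, at 9.91, 10, 9.18 and 8.43 CPM in controls and 6.94, 8.08, 15.9 and 13.4 CPM in cKO. The cKO gland of replicate 3 was the highest of its group for 36 of the 40 genes. Macrophage markers were called higher for 7 of 12 in these cKO glands (summed 462 to 1201 CPM against 267 to 479 CPM), none of them at 0. Endothelium markers were called lower for 7 of 8 and higher for 1, and fibroblast and capsule markers lower for 6 of 8. The part of these cell types in the member differences was not tested.

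**Figure D1:**
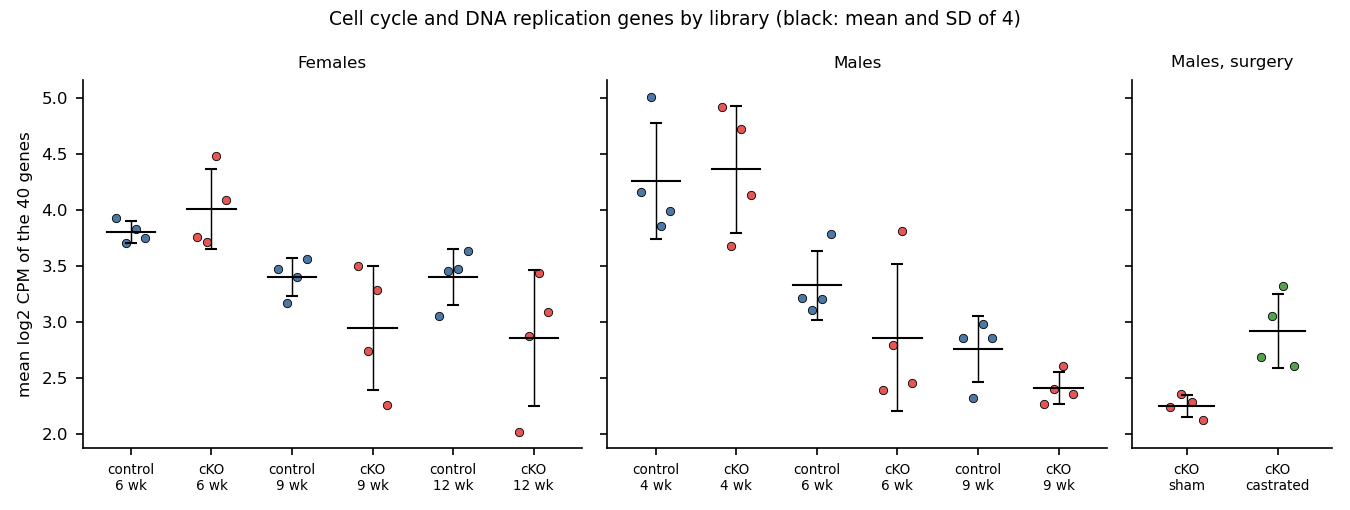
Mean log2 CPM of the 40 genes (y axis) by group (x axis), with 1 point per library (blue control, red cKO or sham cKO, green castrated cKO) and black marks for the mean and SD of 4, in females, males and the surgery experiment. The female 6-week cKO libraries spread from 3.71 to 4.48, the male groups step down with age, and the castrated libraries (2.61 to 3.32) lie above the sham libraries (2.12 to 2.36).

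At 9 and 12 weeks few of the genes were called between female genotypes, and those that were called were lower in cKO. At 9 weeks E2f1, Bub1b and Mcm2 were called lower and 0 genes higher (20% and 14.6% of all genes tested), and 32 of 40 differences were negative, with a median of −0.48. At 12 weeks, 5 genes were called lower and 0 higher (16% and 9.11% of all genes tested), 38 of 40 differences were negative and the median was −0.52. Those 5 were E2f1, Mcm2, Ccne1, Bub1b and Rrm2. Both counts are below the share over all genes tested, and they turn on single mice. At 9 weeks 8 genes were called lower without cKO replicate 1, which was the highest of its group for 31 of the 40, and 2 without cKO replicate 2 or control replicate 4. Leaving out cKO replicate 4 gave 2 higher and 3 lower. At 12 weeks 15 were called lower without cKO replicate 3, the highest of its group for 31, 1 without cKO replicate 1, 2 without control replicate 2, and 3 without cKO replicate 2, control replicate 3 or control replicate 4.

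E2f1 encodes a factor that switches on S phase genes. At 9 weeks it was 20.7, 21.4, 21.4 and 23.4 CPM in controls against 16.6, 14.2, 17.1 and 13.7 CPM in cKO (log2 difference −0.49, SE 0.11, edgeR adjusted p = 0.000864). At 12 weeks it was 22.8, 20.1, 23.8 and 19.8 CPM against 13.4, 16.3, 16.1 and 14.6 CPM (−0.52, SE 0.11, edgeR adjusted p = 0.000833). The genotypes did not overlap at either age. Bub1b, a spindle checkpoint kinase, was 15.5, 13.6, 12.4 and 13.9 CPM in the 9-week controls and 10.1, 5.71, 7.98 and 3.93 CPM in cKO (−1.0, SE 0.28, edgeR adjusted p = 0.00832). At 12 weeks the Bub1b difference was −0.80 (SE 0.28, edgeR adjusted p = 0.0386). Mcm2 differed by −0.31 (SE 0.09) at each of these ages, and at 12 weeks it was 53.1, 56.2, 56.4 and 50.3 CPM in controls against 36.4, 48.7, 43.8 and 45.4 CPM in cKO. Cyclin E1 (Ccne1) was 4.07, 4.25, 4.26 and 3.39 CPM in the 12-week controls and 0.937, 2.99, 2.52 and 2.27 CPM in cKO (−0.87, SE 0.27, edgeR adjusted p = 0.0218). Its genotypes did not overlap.

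The mitotic and spindle genes had larger negative medians in older females than the licensing genes, with wider spread. At 12 weeks the medians were −0.58 for the 10 mitotic regulators (0 called), −0.73 for the 11 spindle genes (1 called) and −0.09 for the 10 licensing genes (1 called). Mki67 was 18.5, 34.3, 32.3 and 44.6 CPM in the 12-week controls and 7.47, 14.8, 33.4 and 20 CPM in cKO, overlapping groups with a log2 difference of −0.78 (SE 0.37, edgeR adjusted p = 0.139). Rrm2, the limiting subunit of ribonucleotide reductase, was 10.2, 17.3, 18.8 and 18.1 CPM against 3.78, 9.67, 12.0 and 9.55 CPM (−0.88, SE 0.32, edgeR adjusted p = 0.0458), where the lowest control lay among the cKO glands. Macrophage markers were called higher for 8 of 12 at 9 weeks and 6 of 12 at 12 weeks (summed 938 to 1599 CPM in cKO against 366 to 561 CPM at 12 weeks), and fibroblast and capsule markers lower for 8 of 8 and 7 of 8. Endothelium markers were lower for 7 of 8 and 3 of 8, with 1 higher at each age. Their part was not tested.

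With age, the genes were lower in cKO females at 12 than at 6 weeks almost without exception, and in control females the same ages gave smaller differences and 0 calls. In cKO, 38 of the 40 were called lower and 0 higher at 12 against 6 weeks (3.9% and 6.03% of all genes tested). The median fold was 2.35, and the exceptions were Ccnb1 (edgeR adjusted p = 0.0503) and Cdc45 (edgeR adjusted p = 0.0583). In 32 genes every 12-week cKO gland was below every 6-week cKO gland (5.8% of all genes tested). Mki67 fell from 53.7 ± 20.6 to 18.9 ± 10.9 CPM (SD, n = 4 each; log2 difference −1.50, SE 0.38, edgeR adjusted p = 0.0153). Tyms fell from 12.8, 13.2, 15.7 and 15.8 to 7.07, 8.60, 9.71 and 8.76 CPM (−0.75, SE 0.11, edgeR adjusted p = 0.000409). Its age groups did not overlap.

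By role, the mitotic and spindle genes had medians of −1.33 (9 of 10 lower) and −1.30 (11 of 11 lower) in the 12 against 6 week comparison of cKO females. Licensing genes had −0.78 (9 of 10 lower), fork and nucleotide genes −0.75 (5 of 5) and the E2F and cyclin E genes −1.23 (4 of 4). Most of the step lay before week 9. At 9 against 6 weeks 19 genes were called lower and 0 higher (0.955% and 0.799% of all genes tested), with a median of −1.14. At 12 against 9 weeks 0 were called by edgeR or DESeq2, with 1 at an unadjusted p under 0.05 and a median of −0.09. In that comparison edgeR called 0% of all genes tested in either direction. These counts depend on single glands. At 12 against 6 weeks, 18 genes were called without 6-week cKO replicate 3, 25 without 12-week cKO replicate 1 and 21 without 12-week cKO replicate 2. With only those groups in the fit 11 were called, and 14 without the libraries that held Alb. At 9 against 6 weeks, 1 was called without 6-week cKO replicate 3 or 9-week cKO replicate 4, 2 without 9-week replicate 2, 10 without 6-week replicate 4 and 31 without 9-week replicate 1. With only those groups in the fit, or without the libraries with Alb, it was 0, while DESeq2 called 36 (1.87% of all genes tested). Macrophage markers were called higher at 12 against 6 weeks for 3 of 12.

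In control females all 40 differences were negative both at 9 against 6 weeks (median −0.43) and at 12 against 6 weeks (median −0.41), and 20 were positive and 20 negative at 12 against 9 weeks. edgeR and DESeq2 called 0 of the 40 in each of these age comparisons, and 4, 7 and 0 had an unadjusted p under 0.05 in the order given. By edgeR 0.0912% of all genes tested were higher at 12 against 6 weeks, and otherwise 0% were called in either direction. For 24 genes every 9-week control was below every 6-week control (2.51% of all genes tested), and for 16 at 12 against 6 weeks (2.67%). The test of whether the genotype difference itself changed from 6 to 12 weeks called 0 of the 40 by edgeR or DESeq2 (0.00536% of all genes tested were lower and 0.316% higher by edgeR), although all 40 estimates were negative, with a median of −0.74 and 13 at an unadjusted p under 0.05. E2f1 came nearest, at −0.51 (SE 0.15, edgeR adjusted p = 0.162). So a larger drop with age in cKO than in control females was not established gene by gene.

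**Figure D2:**
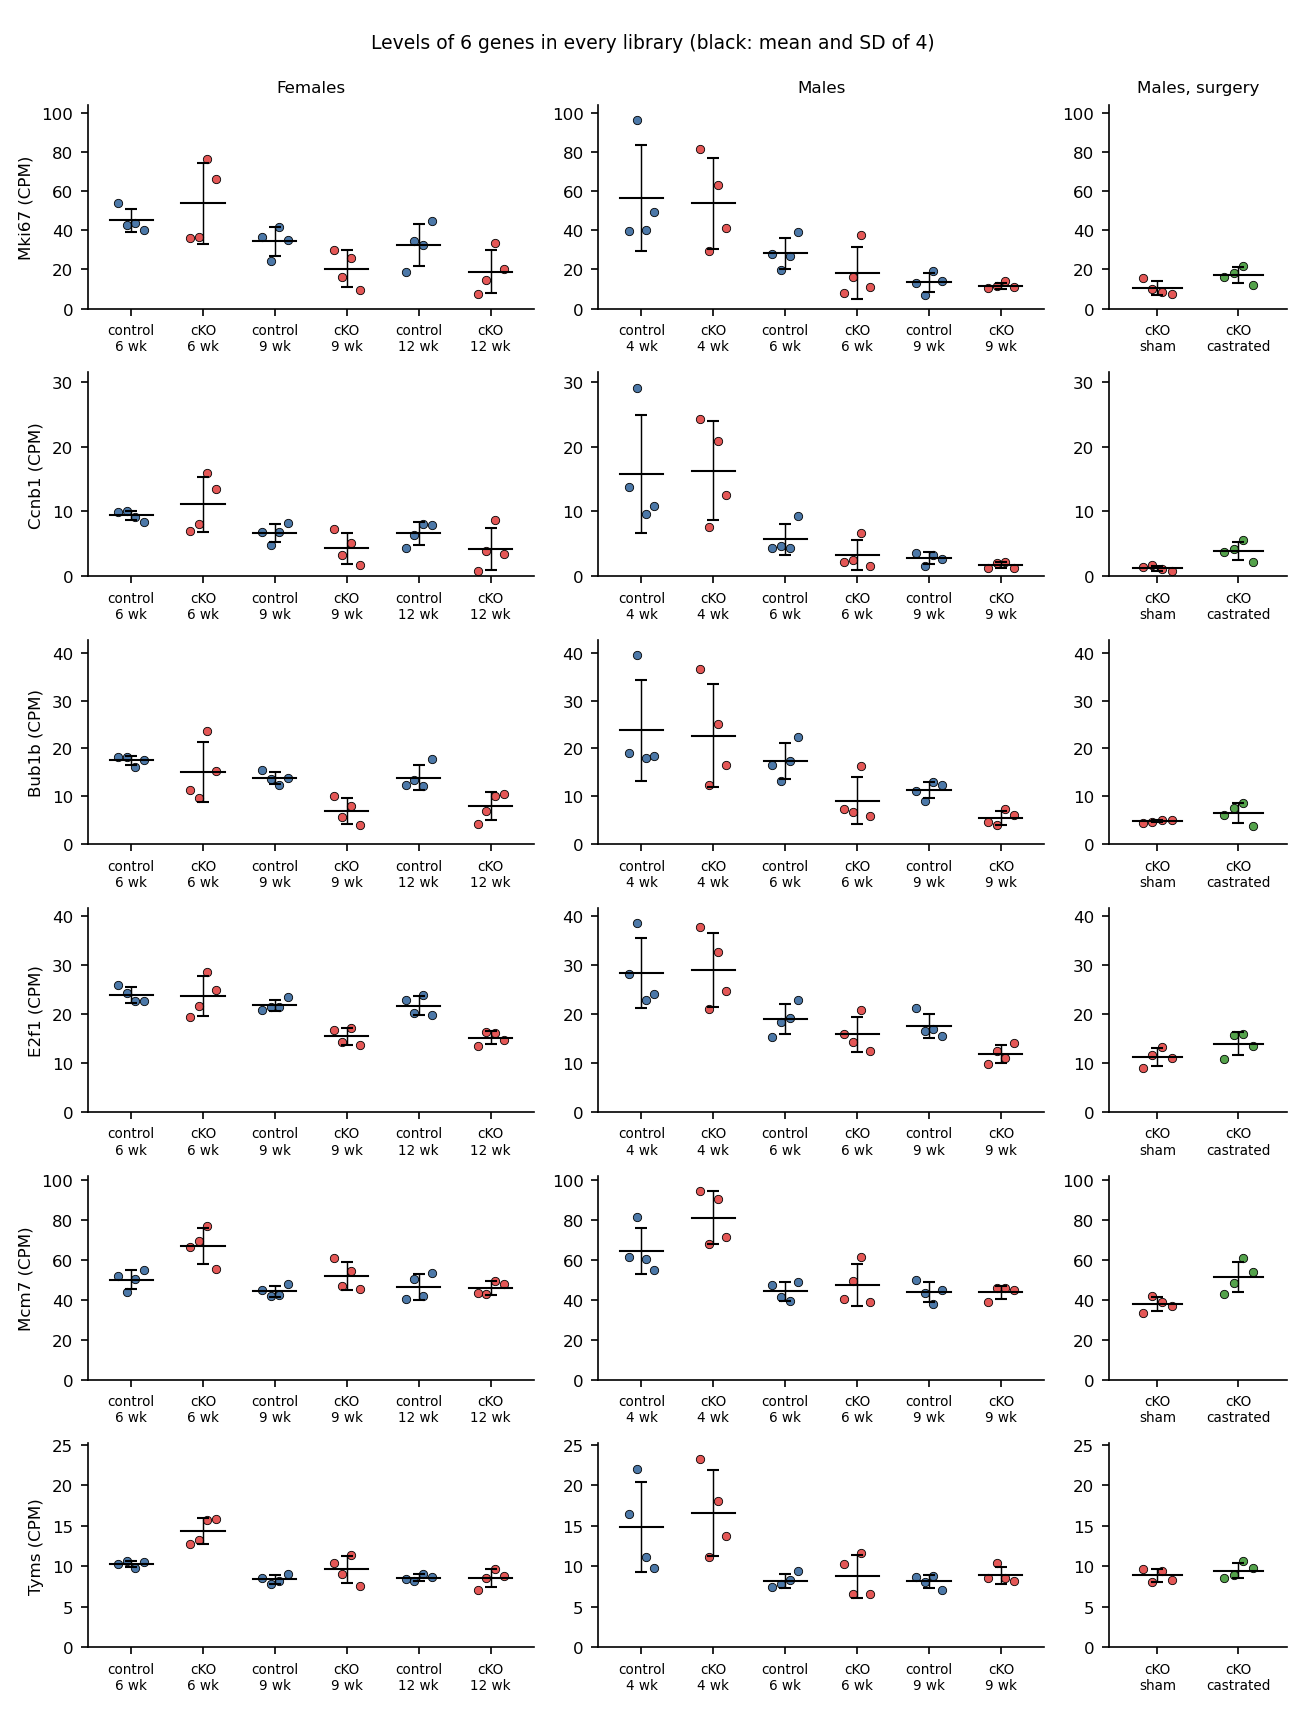
CPM (y axis, from 0) of Mki67, Ccnb1, Bub1b, E2f1, Mcm7 and Tyms by group (x axis), with 1 point per library (blue control, red cKO or sham cKO, green castrated cKO) and black marks for the mean and SD of 4. In females the 6-week cKO libraries of Mki67 run from 36.0 to 76.2 CPM, and in males the 4-week groups are highest for Mki67 and Ccnb1.

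In males few of the genes were called between the genotypes at any age, and the genes were far lower in older than in younger mice of both genotypes. At 4 weeks, 0 of the 40 genes were called between cKO and control by edgeR or DESeq2 (6.29% of all genes tested were higher and 12.9% lower), 2 had an unadjusted p under 0.05, and the median was 0.12. Individual mice differed more than genotypes. Control replicate 2 was the highest and cKO replicate 2 the lowest of its group for 40 of 40 genes. Mki67 was 39.5, 96.5, 39.9 and 49.5 CPM in controls and 81.3, 29.2, 62.9 and 41.4 CPM in cKO, fully intermixed. Without that control 8 genes were called higher in cKO, without that cKO gland 2, and without cKO replicate 4 1 gene. cKO replicate 2 also held 71.0 CPM of Alb, and 2 genes were called higher without the libraries with Alb.

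At 6 weeks, 1 gene, Ccne1, was called lower in cKO males and 0 higher (11.9% and 8.19% of all genes tested), with 34 of 40 differences negative and a median of −0.38. Ccne1 was 2.82, 5.19, 4.73 and 5.39 CPM in controls and 0.821, 1.78, 4.13 and 1.40 CPM in cKO, so that 1 cKO gland lay among the controls (log2 difference −1.14, SE 0.40, edgeR adjusted p = 0.0487). That gland, cKO replicate 3, was the highest of its group for 40 of 40 genes: Mki67 was 37.7 CPM there and 7.99, 16.3 and 11 CPM in the other three, against 19.9 to 39.0 CPM in controls. Without it 13 genes were called lower, with no share over all genes tested given for that run. The Ccne1 call was lost without any other cKO gland, without control replicate 2, 3 or 4, without the low-count filter, with the replicate number as a block and without the libraries with Alb. It was also lost with the library number as a covariate. At 6 weeks all 4 controls are numbered above 24 and 0 of the 4 cKO are, as are 3 of 4 controls and 0 of 4 cKO at 4 weeks, so within 6 weeks genotype and library number cannot be told apart. DESeq2 called 2 (12.3% of all genes tested). Macrophage markers were called higher for 9 of 12 in cKO (summed 741 to 2279 CPM against 377 to 452 CPM), endothelium markers higher for 4 of 8, and fibroblast and capsule markers lower for 4 of 8. Their part was not tested.

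At 9 weeks Bub1b and E2f1 were called lower in cKO males and 0 genes higher (13.6% and 10.4% of all genes tested), with 33 of 40 differences negative and a median of −0.30. Bub1b was 11.1, 9.04, 12.9 and 12.4 CPM in controls and 4.58, 4.02, 7.35 and 6.00 CPM in cKO (−1.05, SE 0.35, edgeR adjusted p = 0.0307). E2f1 was 21.1, 16.5, 16.9 and 15.5 CPM in controls and 9.67, 12.4, 10.9 and 14 CPM in cKO (−0.58, SE 0.20, edgeR adjusted p = 0.0355). Neither gene's groups overlapped, and the same pair was also called lower in females at 9 and 12 weeks. Mki67 did not differ beyond its spread, at 13.1, 6.88, 19.2 and 14.2 CPM against 10.6, 11.3, 14 and 11.1 CPM. The count was 0 without cKO replicate 1 or 2 or control replicate 3 and 1 without control replicate 1, 2 or 4. It was 0 among libraries numbered up to 24, 1 with the replicate number as a block, 4 by DESeq2 (13.8% of all genes tested) and 6 with only those groups in the fit. Macrophage markers were called higher for 10 of 12 in cKO (summed 956 to 4688 CPM against 452 to 589 CPM), endothelium markers higher for 2 of 8, and fibroblast and capsule markers lower for 2 of 8. Their part was not tested.

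**Figure D3:**
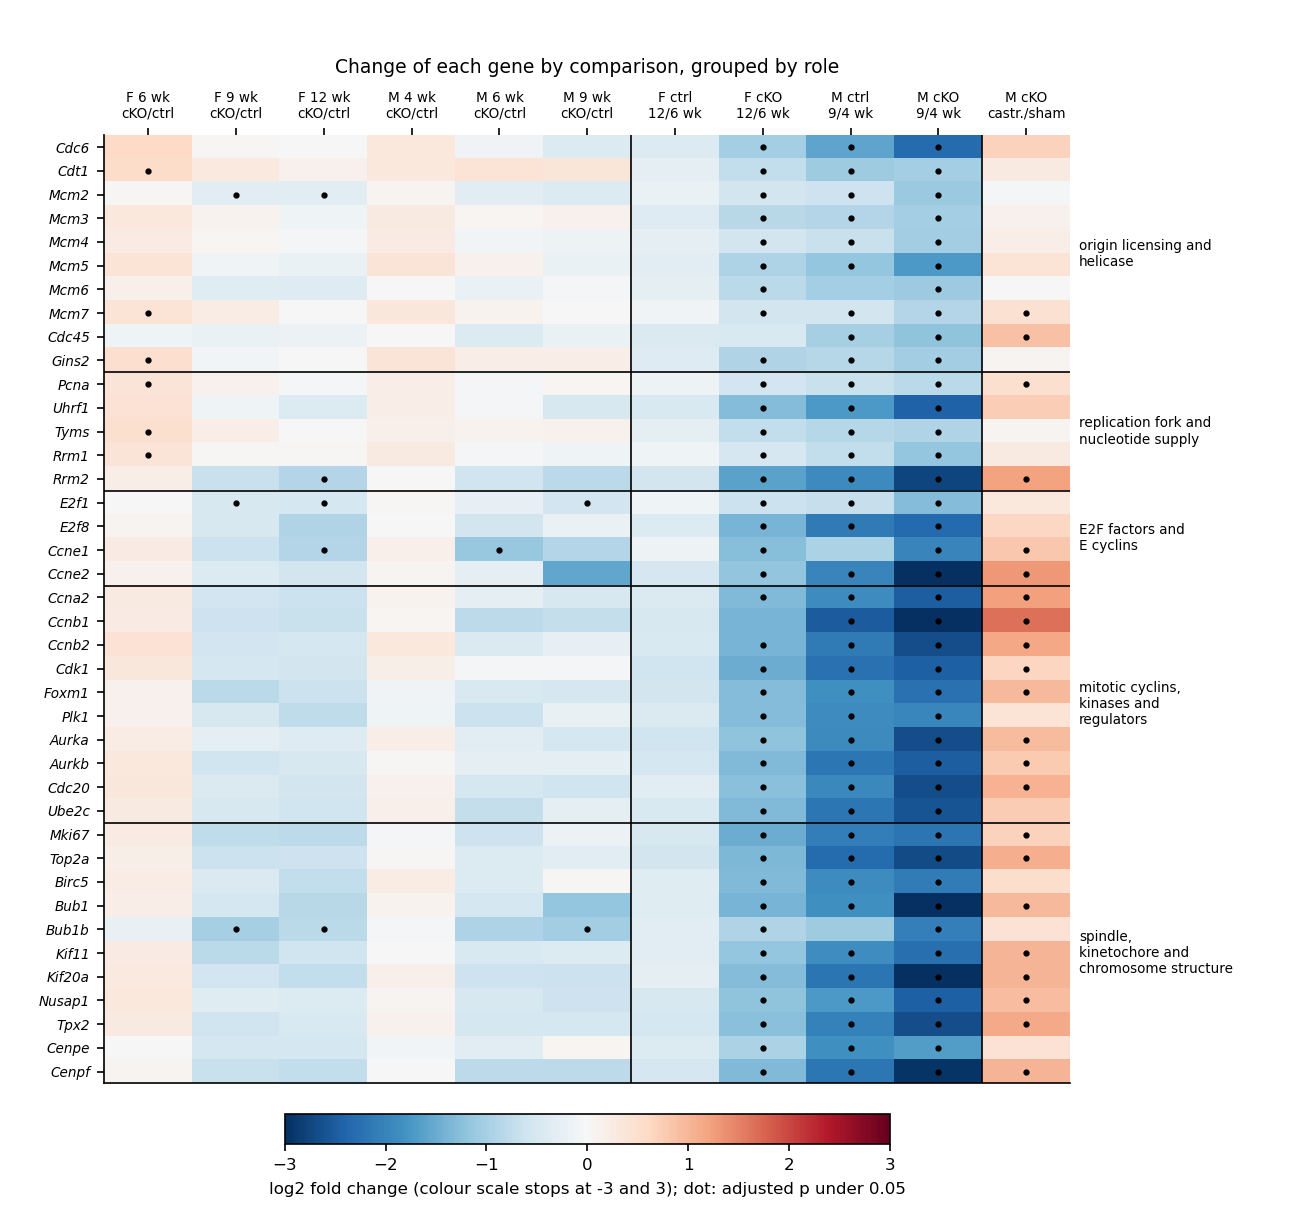
Log2 difference, as colour from blue (lower) to red (higher), of the 40 genes (rows, grouped by role) in 11 comparisons (columns: cKO against control by age, age within genotype, castrated against sham), with a dot where edgeR called the gene. The dots of 6-week females lie in the licensing and fork rows, and the darkest blue is in the column of cKO males at 9 against 4 weeks, where Ccne2, Ccnb1 and Bub1 lie beyond the end of the colour scale.

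The steepest differences of the series in these genes were with age in males. In cKO males, 40 of 40 were called lower at 9 than at 4 weeks (20.9% of all genes tested were lower and 20.8% higher), with a median fold of 4.77, and in 40 of 40 every 9-week gland was below every 4-week gland (18.1% of all genes tested). In control males 37 of 40 were called lower over the same ages and 0 higher (2.22% and 0.913% of all genes tested), with a median fold of 3.58. The exceptions there were Mcm6, Ccne1 and Bub1b, with log2 differences of −1.01, −0.94 and −1.06. In 38 of 40 the control ages did not overlap (5.55% of all genes tested). Without 4-week control replicate 2 or 9-week control replicate 2, 17 genes were called in controls.

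Cyclin B1 was 13.7, 29.1, 9.56 and 10.8 CPM in the 4-week controls and 3.57, 1.58, 3.33 and 2.72 CPM in the 9-week controls (log2 difference −2.49, SE 0.44, edgeR adjusted p = 0.0038). In cKO it was 24.2, 7.56, 20.8 and 12.6 CPM at 4 weeks and 1.32, 2.09, 2.15 and 1.27 CPM at 9 weeks (−3.25, SE 0.47, edgeR adjusted p = 2.03e-05). The ages did not overlap in either genotype. Top2a fell from 47.5 ± 20.9 to 9.50 ± 3.07 CPM in controls and from 48.3 ± 19.7 to 7.55 ± 1.43 CPM in cKO (SD, n = 4 each). Kif20a, a motor of the final separation of daughter cells, fell from 27.4 ± 11.6 to 3.46 ± 0.647 CPM in cKO (SD, n = 4 each; −2.99, SE 0.41).

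In both genotypes the median of the replication genes was nearer 0 than that of the mitotic genes. The medians at 9 against 4 weeks in controls were −0.94 for licensing (9 of 10 lower), −0.86 for fork and nucleotide genes (5 of 5), −1.47 for E2F and cyclin E genes (3 of 4), −2.02 for mitotic regulators (10 of 10) and −1.89 for spindle genes (10 of 11). In cKO they were −1.08 (10 of 10), −1.15 (5 of 5), −2.16 (4 of 4), −2.53 (10 of 10) and −2.44 (11 of 11). Mcm7 was among the smallest, at 61.4, 81.3, 60.6 and 54.9 CPM in the 4-week controls and 37.8 to 49.8 CPM at 9 weeks. Ccne2, the other E cyclin, had the largest estimate, −3.66 (SE 0.61) in cKO, and its lowest library held 3 counts. The difference of genotype effects between 4 and 9 weeks called 0 of the 40 by edgeR or DESeq2 (1.97% of all genes tested were lower and 2.94% higher by edgeR), with 3 at an unadjusted p under 0.05 and a median of −0.41. Without 4-week control replicate 2 it called 2.

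Within cKO males, 39 of 40 genes were called lower at 6 than at 4 weeks and 0 higher (9.09% and 7.53% of all genes tested; median fold 2.87), the exception being Mcm6. At 9 against 6 weeks in cKO, edgeR called 0 (0.351% of all genes tested were lower and 0.41% higher), DESeq2 called 1 (2.77% lower), and 13 had an unadjusted p under 0.05, with a median of −0.71. In control males edgeR called 0 at 6 against 4 weeks (0.0293% of all genes tested were lower and 0.041% higher), where 37 of 40 had an unadjusted p under 0.05, the smallest adjusted p was 0.0807, the median was −1.04 and DESeq2 called 13 (0.902% of all genes tested were lower by it). The control ages did not overlap for 26 of 40 genes (5.58% of all genes tested). At 9 against 6 weeks in controls edgeR and DESeq2 called 0, with 14 at an unadjusted p under 0.05 and a median of −0.65. There edgeR called 0% of all genes tested in either direction. No share of all genes tested at an unadjusted p under 0.05 is given beside these counts.

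Markers listed for red cell precursors, which include globin genes, moved with age in males. Whether they came from dividing cells was not measured. They were called lower for 6 of 7 in controls at 9 against 4 weeks (summed 349 to 536 CPM at 4 weeks and 129 to 166 CPM at 9 weeks), and 1 was higher and 6 lower in cKO (519 to 736 CPM and 168 to 231 CPM). In cKO, macrophage markers rose for 9 of 12 and cortex markers fell for 6 of 8 over the same ages. In cKO females at 12 against 6 weeks, 6 of the 7 red cell precursor markers had positive differences (median 0.62). Of them 0 were called higher and 1 lower. In control females 3 of the 7 were positive and 4 negative over those ages, with 0 called. The part of these cell types in the drop of the 40 genes was not tested.

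Castrated cKO males had higher levels than sham-operated cKO males at 9 weeks, with most of the calls among mitotic and spindle genes. Of the 40 genes, 22 were called higher and 0 lower (19.8% and 23.8% of all genes tested), 38 of 40 differences were positive, and the median was 0.72, a fold of 1.65. For 18 genes every castrated gland stood above every sham gland (21.1% of all genes tested). The mean log2 CPM of the 40 genes was 2.69, 3.05, 3.32 and 2.61 in castrated and 2.24, 2.36, 2.28 and 2.12 in sham glands, without overlap. With 1 gland left out, 15 to 23 genes were called, the fewest without castrated replicate 2 or 3, and 18 were called with the reporter alleles as a covariate.

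Cyclin A2 (Ccna2), which acts in S phase and G2, was 4.02, 3.43, 3.31 and 3.00 CPM in sham and 6.46, 8.78, 11 and 6.12 CPM in castrated glands (log2 difference 1.24, SE 0.22, edgeR adjusted p = 0.00124). The lowest castrated gland was above the highest sham gland. Cyclin B1 was 1.41, 1.67, 1.09 and 0.817 CPM in sham and 3.73, 4.19, 5.59 and 2.18 CPM in castrated glands, 3.17-fold higher (1.66, SE 0.33, edgeR adjusted p = 0.00223). Cyclin B2 (Ccnb2) was 2.03, 1.98, 1.52 and 1.41 CPM and 3.54, 3.72, 4.92 and 3.36 CPM (1.17, SE 0.22, edgeR adjusted p = 0.00184). All of these cyclins were separated between the groups.

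Cdc20, which starts the exit from mitosis, was higher by 1.05 (SE 0.21), the transcription factor Foxm1, which drives G2 and M genes, by 0.98 (SE 0.20), and the spindle assembly factor Tpx2 by 1.13 (SE 0.23) on the log2 scale. Top2a was 7.38, 8.13, 7.04 and 4.90 CPM in sham and 12.1, 15.4, 21.7 and 9.06 CPM in castrated glands (1.09, SE 0.26, edgeR adjusted p = 0.00704), again without overlap. Mki67 was less clear, at 15.7, 10.2, 8.39 and 7.57 CPM in sham and 15.9, 18.2, 21.7 and 12.1 CPM in castrated glands (0.70, SE 0.25, edgeR adjusted p = 0.0411). For this gene 1 castrated gland lay between sham replicates, and the call was lost under a stricter filter on low counts (Mki67 edgeR adjusted p = 0.0558) and when any of 6 of the 8 glands was left out (edgeR adjusted p = 0.0528 to 0.112, the highest without castrated replicate 3, the castrated library with Alb).

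The replication genes were divided. Of the 10 licensing genes 2 were called higher (median 0.24): Mcm7, at 33.5, 41.8, 38.8 and 36.7 CPM in sham and 43.0, 48.1, 60.7 and 53.8 CPM in castrated glands (0.45, SE 0.13), and Cdc45, at 2.30, 3.62, 3.34 and 2.91 CPM and 5.46, 5.59, 6.49 and 5.15 CPM (0.89, SE 0.19). Both were separated between groups. The other helicase subunits did not pass, with Mcm2 at −0.04 (SE 0.20), Mcm6 at −0.02 (SE 0.18) and Mcm3 at 0.12 (SE 0.18). Among fork and nucleotide genes Pcna (0.49, SE 0.15) and Rrm2 (1.21, SE 0.29) were called, and Tyms was at 0.09 (SE 0.14). By contrast 8 of 10 mitotic regulators (median 0.96, not Plk1 and Ube2c) and 8 of 11 spindle genes (median 0.98, not Bub1b, Cenpe and Birc5) were called, as were both E cyclins among the 4 E2F and cyclin E genes. Bub1b and E2f1, the pair lower in cKO than control at 9 weeks, did not pass here, at 0.43 (SE 0.24) and 0.32 (SE 0.17).

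**Figure D4:**
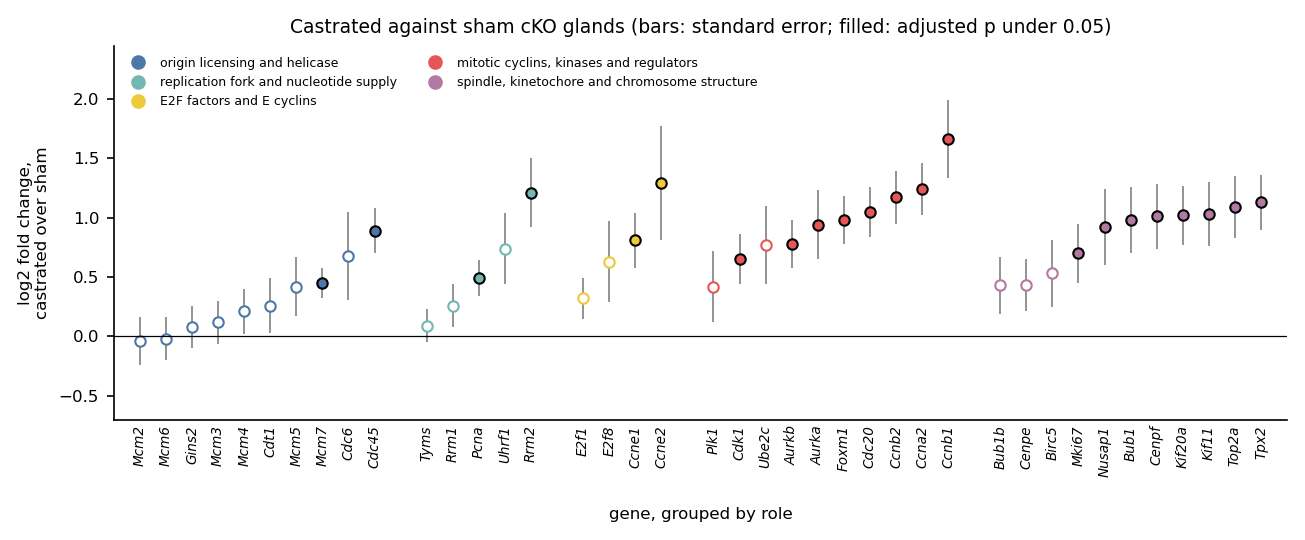
Log2 difference between castrated and sham cKO glands (y axis) of each of the 40 genes (x axis, grouped and coloured by role), with 1 standard error as the bar and filled points for genes called by edgeR. Ccnb1 is highest at 1.66, and most helicase subunits lie near 0.

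Cell markers moved along with surgery. Steroidogenic cortex markers were higher for 6 of 8 and lower for 1 in castrated glands, with a summed level of 68703 to 78901 CPM against 26855 to 39528 CPM in sham. Macrophage markers were called lower for 10 of 12 (453 to 719 CPM against 1458 to 2863 CPM), fibroblast and capsule markers for 8 of 8 (337 to 401 CPM against 846 to 1023 CPM), medulla markers for 8 of 8 (308 to 707 CPM against 924 to 1843 CPM), and endothelium markers for 7 of 8 (860 to 935 CPM against 1080 to 1478 CPM). None of these markers was at 0. Of 7 markers of red cell precursors 5 were called lower (86.4 to 142 CPM against 167 to 253 CPM). Their part in the higher cell cycle levels was not tested. Sham replicate 1 also stood apart in its mitochondrial share, 9.87% of counts against 2.41% to 4.44% in the other seven glands, and 6.01% of its counts fell on 1 identifier without a symbol, against 0.0928% to 0.968% for the largest such identifier in the others. Without this library 23 of the 40 genes were called higher.

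The rest of the cell cycle machinery, was counted from lists of genes outside the 40. Among 36 other S phase genes, 12 were called higher and 0 lower in 6-week cKO females (14.2% and 19.1% of all genes tested). Cdc7, the kinase that fires licensed origins, led them at 14.8, 19.9, 16.4 and 19.2 CPM against 9.31, 9.72, 11.2 and 7.96 CPM in controls (log2 difference 0.88, SE 0.14, edgeR adjusted p = 4.76e-05), and its groups did not overlap. At 9 and 12 weeks Cdc7 differed by 0.28 (SE 0.14) and 0.02 (SE 0.14). Of 40 other G2 and M genes, 3 were called higher and 0 lower at 6 weeks in females, among them the inner centromere protein Incenp. That is below the share over all genes tested, although the medians of the S phase and the G2 and M lists were 0.32 and 0.23. At 12 weeks the G2 and M counts were 0 higher and 3 lower, also below the shares over all genes tested (9.11% and 16%). In castrated males 19 of these 40 G2 and M genes were called higher and 0 lower (median 0.78). Of the 36 S phase genes 6 were higher and 2 lower (median 0.11). Over all genes tested 19.8% were higher and 23.8% lower, so only the G2 and M count of higher calls exceeded its share. Hmmr, a spindle-associated protein, was 0.974 ± 0.164 CPM in sham and 3.37 ± 1.11 CPM in castrated glands (SD, n = 4 each; log2 difference 1.79, SE 0.29, edgeR adjusted p = 0.00067).

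With age, 29 of the 36 S phase genes and 36 of the 40 G2 and M genes were called lower in cKO females at 12 against 6 weeks. Their medians were −0.60 and −1.24, and 3.9% of all genes tested were lower. In males at 9 against 4 weeks, 16 and 36 were lower in controls (−0.68 and −1.85) and 30 and 39 in cKO (−0.77 and −2.19). Of all genes tested 2.22% were lower in controls and 20.9% in cKO, so the counts of the genotypes stand against unlike shares.

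The order of the groups was regular across the 40 genes. In females, the mean was highest in 6-week cKO for 37 genes and in 6-week controls for 3, and lowest in 12-week cKO for 25, in 9-week cKO for 9, in 9-week controls for 5 and in 12-week controls for 1. In males it was highest in 4-week cKO for 32 and in 4-week controls for 8, and lowest in 9-week cKO for 33 and in 9-week controls for 7. The neighbours at the top of either order did not differ beyond their spread, apart from the 6 genes called in 6-week females, and in 12-week against 9-week females 0 were called in either genotype.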

How the data were processed

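Whole adrenal glands of 56 mice in 14 groups of 4 were measured by RNA sequencing. The authors deposited raw counts per Ensembl gene in 3 tables (females, males, surgery). Per the submitters' processing notes, the tools were cutadapt 1.16, STAR 2.7.6a, RSEM 1.6.3, featureCounts and DESeq2 1.30.1 on GRCm38, in roles that are not given in the sources used here. Per the labels, libraries were directional and each group held independent mice, except that the sham mice share 1 replicate number, and their numbers here follow accession order and serve only to name them.

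Each table was fitted on its own with edgeR 4.0.16 (R 4.3.3, limma 3.58.1): TMM scaling, filterByExpr with a minimum count of 10, and the quasi-likelihood test over all groups of the table, with Benjamini-Hochberg adjustment over all genes tested and a threshold of 0.05. Standard errors were approximated from the log2 fold change and the F statistic, so they are near but not equal to model errors. Log2 CPM used a prior count of 2. The fits were tested on simulated data. The members and all lists were chosen with earlier results of these data known, and no list was tested as a set. Named genes were 8 always named members, up to 8 members per comparison with the smallest p among those called, any called against the majority, and up to 4 called genes of each other list. Others named, such as Mcm6, Mcm3 and Ccne2, were chosen after their values were seen.

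Alternatives were DESeq2 1.42.0, RLE factors, no filter, at least 1 CPM in 4 libraries, only the groups compared, a replicate block, library number or reporter covariates, leaving out each replicate, and, added after seeing the data, leaving out libraries with 10 CPM or more of Alb. The lowest member count was 3 (Ccne2), and Bub1 reached 5, both in cKO males, so depth limits these most. Same-numbered mice did not deviate together, so the numbers were not taken as pairs.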

Additional observations from a re-analysis of the deposited data

Results flagged for a closer look

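In 7 of 126 groups of 4 libraries tested, 1 library stood far from the other three, and chance alone gives about 1 in 20. Control replicate 4 of 6-week males accounts for 3 of them: its mean log2 CPM over the 40 genes was 3.78 against 3.11 to 3.21 in the others, its Top2a was 27.1 CPM and its Ccnb1 9.33 CPM. It was the highest of its group for 37 of the 40 genes. Control replicate 2 of 4-week males had 134.0 CPM of Pcna against 69.6 to 77.2 CPM, and this library was the highest of its group for 40 of 40 genes. The other three were Top2a at 20 CPM in control replicate 2 of 9-week females, Ccne1 at 4.31 CPM in control replicate 3 of 9-week males, and Mcm7 at 39.0 CPM in cKO replicate 1 of 9-week males.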

How the results depend on the processing

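The age drop in cKO males stayed within 1.5 times, with 33 to 40 genes lower at 6 against 4 weeks with 1 gland left out. At 9 against 4 weeks it was 40 in each such run. The 5 to 6 genes higher in 6-week cKO females also stayed within 1.5 times, as did castration (15 to 23 genes). Of the comparisons with 0 genes called, 8 also gave 0 with any gland left out. The following moved by more than 1.5 times. DESeq2 called 5 genes in 9-week females, 36 in cKO females at 9 against 6 weeks, 2 in 6-week and 4 in 9-week males, 13 in control males at 6 against 4 weeks and 1 in cKO males at 9 against 6 weeks. With only the groups compared the counts were 2 in 12-week females, 0 and 11 in cKO females at 9 and at 12 against 6 weeks, and 6 in 9-week males. Without the low-count filter they were 0 in 6-week males and 1 in control males at 6 against 4 weeks. With library number above 24 as a covariate 6-week males gave 0, and with libraries up to 24 only, 9-week males gave 0. Without the libraries with Alb, 3 genes were called in 12-week females, 0 and 14 in cKO females at 9 and at 12 against 6 weeks, 2 in 4-week and 0 in 6-week males. With 1 replicate left out the ranges were 2 to 8 in 9-week females and 1 to 15 in 12-week females. In cKO females they were 1 to 31 and 18 to 38 at 9 and at 12 against 6 weeks. Males gave 0 to 8, 0 to 13 and 0 to 2 at 4, 6 and 9 weeks. Control males gave 17 to 38 at 9 against 4 weeks, and the change of the male genotype effect gave 0 to 2. Some of these runs held fewer samples or another number of genes tested, and the cause of the moves was not tested. None of the 8 always named members reversed a call with DESeq2, RLE factors, the other filters or libraries left out. Other named genes and the remaining settings were not checked for this.

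With the replicate number as a block, 5 genes were called in 9-week females, 0 in 6-week and 1 in 9-week males, and the other comparisons stayed within 1.5 times. Same-numbered mice had correlations of −0.22 to 0.19 in females and −0.25 to 0.17 in males (median 0.01 in each), so the number was not treated as a pairing. No paired analysis was possible because the sham mice share 1 number in the surgery experiment.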

Other observations

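Of the 16 G1 cyclins, CDKs and pocket proteins, 4 were called higher and 2 lower in 6-week cKO females (14.2% and 19.1% of all genes tested). In cKO males at 9 against 4 weeks 1 was higher and 10 were lower (20.8% and 20.9% of all genes tested). In 6-week cKO females the D cyclins, which start the cycle with Cdk4, split: Ccnd1 was 84.2 ± 7.48 CPM against 190 ± 17 CPM in controls, Ccnd2 210 ± 17 CPM against 420 ± 57.1 CPM, and Ccnd3 1200 ± 107 CPM against 662 ± 13.9 CPM (SD, n = 4 each). Log2 differences were −1.18 (SE 0.12), −1.0 (SE 0.10) and 0.86 (SE 0.09), all called by edgeR. Ccnd1 and Ccnd2 were also called lower in cKO at every other age of either sex, whereas Ccnd3 was called higher at each female age and at none of the male ages (4, 6 and 9 weeks: 0.22, −0.32 and −0.13). Castrated males had 1120 ± 135 CPM of Ccnd3 against 391 ± 45.7 CPM in sham (1.51, SE 0.14) and 239 ± 16.4 CPM of Ccnd2 against 433 ± 15.8 CPM (−0.86, SE 0.10; SD, n = 4 each).

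Among the 7 CDK inhibitors, which hold cells out of the cycle, Cdkn2a was called higher in cKO females at each age (log2 differences 1.38, 1.46 and 1.02, with SE 0.22, 0.22 and 0.21) and in castrated males (1.25, SE 0.25). At 6 weeks it was 6.98, 6.81, 5.38 and 6.64 CPM in cKO females and 2.24 to 2.77 CPM in controls, without overlap. It did not pass in males at any age. Cdkn1a, a target of p53, was called in none of the genotype comparisons, and 1 cKO female at 6 weeks stood at 67.5 CPM against 25.8 to 39.9 CPM in the other three. Timeless, a fork protection protein, was called lower in cKO females at 9 and 12 weeks (−0.53 and −0.66), in 9-week cKO males (−0.41) and in castrated males (−0.67, SE 0.15), opposite to the mitotic genes in the last.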
